A study of Mus musculus with 2 samples.

Results

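The 36 genes described here encode the machinery by which the T cell receptor signals, and they were followed through the T cells and natural killer (NK) cells of mouse melanomas. They were taken by gene symbol from a list of names. No measured value entered the list, but it was chosen with earlier results of these data known. All 36 were found once each among the 32285 genes of the deposited tables, and each is reported in 5 cell classes. The tumours were grown under the skin from B16F10-OVA, melanoma cells of mouse origin that carry ovalbumin as a model antigen. Mice were injected with PBS, a saline buffer, or with UDSP-Hep, an agent that the labels name without describing, on days 10, 12, 14 and 16. Tumours were taken on day 19, and leukocytes were sorted on CD45, a surface protein of white blood cells, before droplet single-cell RNA sequencing. The 3 tumours of a group were pooled, the files used here do not say which tumour a cell came from, and with 1 library per group there was no replicate and nothing could be tested between PBS and UDSP-Hep. The labels do not give the strain, sex or age of the mice.

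The T cell receptor has no enzyme of its own. When it binds peptide on an MHC molecule, the kinase Lck, brought in by the coreceptors CD4 or CD8, phosphorylates the CD3 and zeta chains, Zap70 docks there, and Zap70 phosphorylates the scaffolds Lat and SLP-76. From these scaffolds phospholipase C gamma makes diacylglycerol, which drives Ras and NF-kB signalling, and inositol trisphosphate, which releases calcium and activates NFAT. Phosphatases, ubiquitin ligases and the diacylglycerol kinases damp the signal. NK cells carry no T cell receptor but use the zeta chain, Lck, Fyn, Zap70 and SLP-76 beneath their own activating receptors.

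The PBS library held 7379 barcodes with 74685827 counted RNA molecules (UMIs) and the UDSP-Hep library 7872 barcodes with 64241224. Each pair of values has PBS before UDSP-Hep, and ratios between the libraries are UDSP-Hep over PBS. Levels are given as CPM, the UMIs of a gene scaled to all UMIs of its class. All intervals are 95% intervals for counting error only and say nothing about differences between animals. After filtering, 6717 and 7195 cells remained, of which 25.2% and 39.3% fell into clusters of T and NK cells. Cells of these clusters were then sorted by transcripts into 577 and 498 CD8 T cells, 103 and 231 CD4 T cells, 213 and 279 regulatory T cells (Treg), 91 and 89 gamma-delta T cells and 323 and 1006 NK cells, while 386 and 722 met no gate. These names come from the gates used here and are not the authors'. Median depths were 8272 and 5480.5 UMIs per cell in CD8 T cells and 3817 and 3783.5 in NK cells. The libraries shared 25 barcodes, of which 1 lay in the T and NK clusters of both.

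Markers that no gate had used were checked against the names. Eomes stood at 482 and 449.5 CPM in NK cells, Ikzf2 at 2146 and 2287 CPM in Treg, Tcrg-C2 at 326 and 314 CPM in gamma-delta T cells, Gzmk at 79.6 and 71.6 CPM in CD8 T cells and Cd40lg at 50.03 and 81.4 CPM in CD4 T cells, each above its level in the other 4 classes in both libraries. Icos, the other marker listed for CD4 T cells that no gate used, was higher in Treg, at 1008 and 1544 CPM against 954 and 867 CPM. The CD4 T class also carried transcripts of type 2 innate lymphoid cells, whose 5 markers summed to 814 and 1193 CPM there, beside Cd3e at 640.4 and 682 CPM. Summed neutrophil markers differed between the libraries in every class, at 8.74 and 48.9 CPM in CD8 T cells and 15.2 and 56.4 CPM in NK cells. Summed macrophage markers were 258 and 500.2 CPM in CD8 T cells, 522 and 215 in CD4 T cells and 958.5 and 778 in Treg, against 4055 and 4467 CPM in macrophages and monocytes.

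Stretches upstream of a RefSeq start site are shown for 3 of the members on which the comparison of the libraries turns, Dgkz, Txk and Trat1. They come from RefSeq on GRCm38.p6 and are written 5′ to 3′ on the strand of the gene. Each was cut off before the first base of any exon that GENCODE M21 annotates for these genes, and exons of other genes were not checked. All 3 genes lie on the minus strand, and the stretches span chr2:91963658-91963813 for Dgkz, chr5:72752778-72753027 for Txk and chr16:48772063-48772312 for Trat1. Capitals mark matches, on either strand, to 7 short motifs: ETS (GGAAGT), RUNX (TGTGGT), TCF/LEF (CTTTGA), NFAT (GGAAAA), AP-1 (TGANTCA), CRE (TGACGT) and SP/KLF (GGGCGG).
Dgkz: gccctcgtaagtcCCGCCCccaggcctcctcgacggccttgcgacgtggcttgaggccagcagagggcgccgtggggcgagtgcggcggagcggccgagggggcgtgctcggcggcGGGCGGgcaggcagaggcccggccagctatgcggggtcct
Txk: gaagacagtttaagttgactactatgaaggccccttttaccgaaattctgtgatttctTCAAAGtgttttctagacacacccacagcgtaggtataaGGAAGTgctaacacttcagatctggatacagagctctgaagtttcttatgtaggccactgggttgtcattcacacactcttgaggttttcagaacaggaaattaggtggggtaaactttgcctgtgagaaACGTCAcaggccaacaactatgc
Trat1: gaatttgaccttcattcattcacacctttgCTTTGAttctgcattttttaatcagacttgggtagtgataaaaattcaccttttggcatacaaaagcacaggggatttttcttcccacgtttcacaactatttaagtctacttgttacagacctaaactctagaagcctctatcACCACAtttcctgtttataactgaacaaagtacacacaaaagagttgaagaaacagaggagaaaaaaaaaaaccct
The Dgkz stretch, 156 bases rich in G and C, held 2 SP/KLF matches, and 17.5% of 32851 promoter windows cut to that length held at least 1. The Txk stretch, 250 bases, held 1 match each to ETS, TCF/LEF and CRE, and the Trat1 stretch, also 250 bases, held 1 each to RUNX and TCF/LEF. Of all windows of 250 bases, 19.7% held the ETS letters, 14% RUNX, 13.8% TCF/LEF and 6.47% CRE. None of the 3 stretches held the NFAT or AP-1 letters, which 20.4% and 6.75% of the windows of 250 bases held. RefSeq listed 2 start windows for Dgkz and for Txk, of which the first is shown. The bases that follow the start site in these windows were found in 1 of 13 GENCODE transcripts of Dgkz, 5 of 8 of Txk and 0 of 2 of Trat1, and the Dgkz stretch lies inside the annotated span of the gene, so which start the cells used is not known. Skap1 had no entry.

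The 3 CD3 genes, whose products join the antigen-binding chains and carry the signal inward, were high in all 4 T cell classes and scarce in NK cells. They lie side by side on chromosome 9 of GRCm38, from 44969572 to 45009627. Cd3e stood at 732 and 738 CPM in CD8 T cells, 640.4 and 682 in CD4 T cells, 559 and 580.4 in Treg, 498 and 568 in gamma-delta T cells, and 25.3 and 18.5 in NK cells. The gate for gamma-delta T cells required CD3 transcripts and those for the other T cells required transcripts of the receptor's constant regions, so part of this contrast was set by the gates. Within the main NK clusters, T6 and T7, Cd3e was lower still, between 2.33 and 6.94 CPM. With every cell thinned to 2000 UMIs, 77.4% and 76.5% of CD8 T cells and 2.74% and 2.71% of NK cells had a Cd3e UMI (unthinned, 96.0% and 93.0% against 3.72% and 3.88%). Macrophages and monocytes, which should lack the gene, had 6.996 and 20.8 CPM.

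Cd3d and Cd3g were somewhat lower in CD8 T cells of the UDSP-Hep library, short of the 1.5-fold used here to call a difference. Cd3d stood at 782 and 674 CPM (ratio 0.862, 0.822 to 0.904) and Cd3g at 476 and 358 CPM (0.752, 0.705 to 0.802). The clusters of CD8 T cells differed in Cd3g: T1 had 684 and 611 CPM and T5 235 and 224 CPM, and within clusters the ratio lay between 0.736 and 1.04. T1 held 231 of the 577 PBS cells and 92 of the 498 UDSP-Hep cells.

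Cd247, which encodes the zeta chain, did not follow the CD3 genes. NK cells had 167 and 150.1 CPM, between Treg at 176 and 182 and CD8 T cells at 153 and 143, and the highest level, in CD4 T cells, was 223 and 231 CPM. Intervals of neighbouring classes in that order overlapped in at least 1 library throughout.

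The coreceptors describe the gates and are given for completeness. Cd8a stood at 766 and 649 CPM (ratio 0.847, 0.807 to 0.889) and Cd8b1 at 547 and 519 CPM in CD8 T cells. Cells of cluster T4 that passed the CD8 gate had Cd8a at 572 and 404 but Cd8b1 at 162 and 93.3 CPM. That cluster, taken whole, was led by Tcrg-C4 and Cd7 and also held most gamma-delta T cells. The gated CD8 class thus included cells that clustered with gamma-delta T cells. Over the whole CD8 class Trdc stood at 6.22 and 7.48 CPM and Tcrg-C2 at 84.0 and 86.6 CPM. In gamma-delta T cells, whose gate required Trdc, these were at 1297 and 1039 and at 326 and 314 CPM. Cd4 stood at 502 and 517 CPM in CD4 T cells and 199 and 204 CPM in Treg. The gate required a Cd4 UMI in every CD4 T cell but not in Treg, so this difference was set at least in part by the gates.

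**Figure D1:**
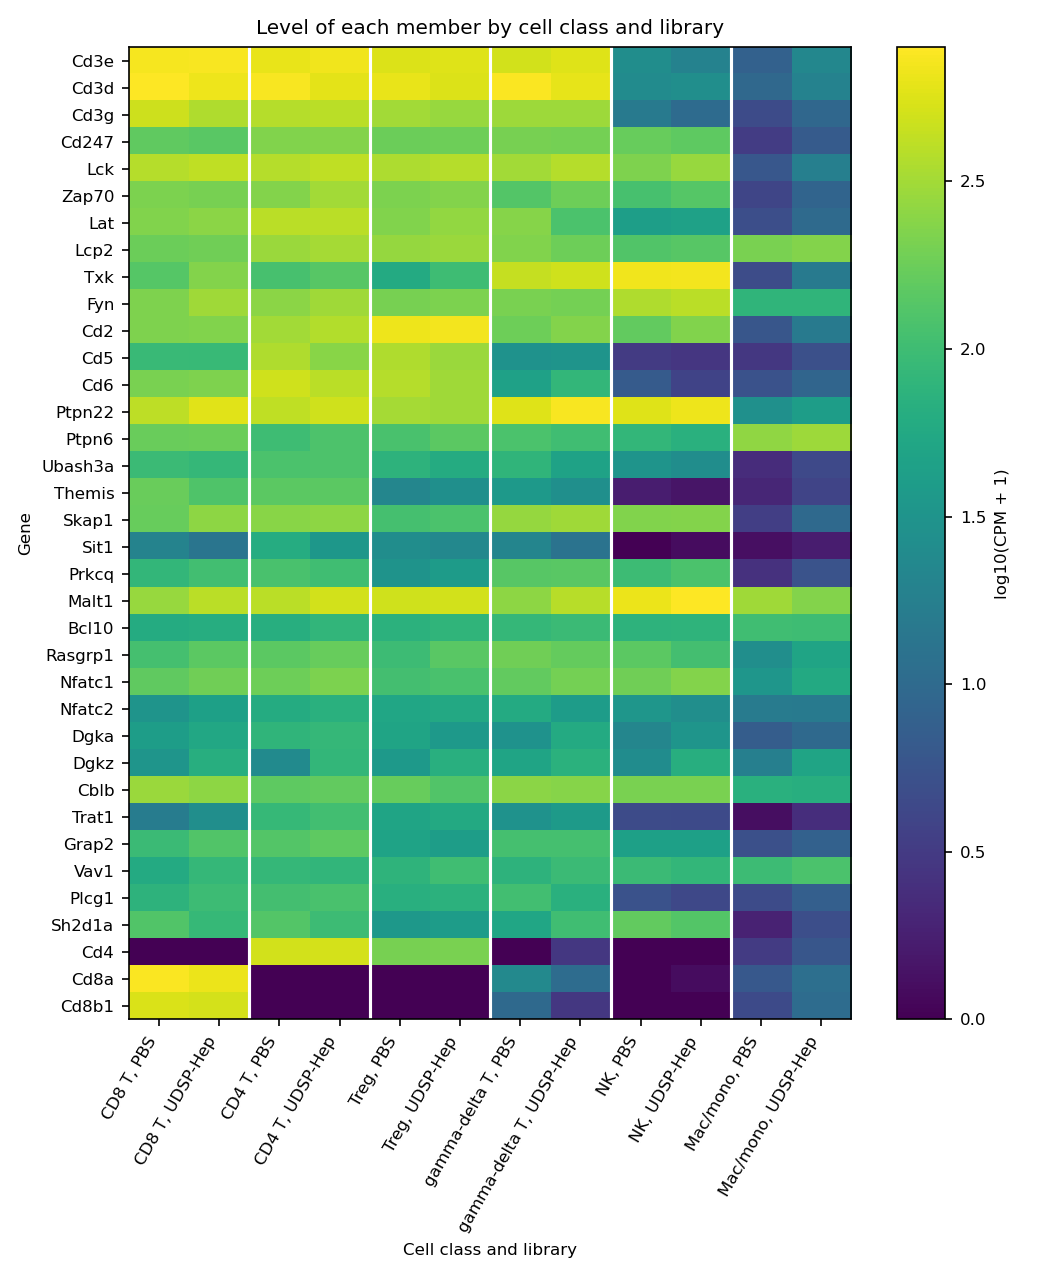
Level of each of the 36 genes (rows) in the 5 classes and in macrophages and monocytes (columns, PBS then UDSP-Hep), as log10 of CPM plus 1. The CD3 rows are bright in the T cell classes and dark in NK cells, Txk and Malt1 are brightest in NK cells, and most rows are dark in macrophages and monocytes.

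Among the kinases, Lck was alike across the T cell classes and lower in NK cells, Zap70 was lowest in NK cells, and Txk and Fyn were highest in NK cells. For Lck, CD8 T cells had 377 and 420.3 CPM, CD4 T cells 375 and 417, Treg 347 and 380.2, gamma-delta T cells 311 and 378, and NK cells 218 and 281. Only the step from gamma-delta T cells to NK cells was larger than counting error in both libraries. Zap70 stood at 232 and 315 CPM in CD4 T cells, 211 and 201 in CD8 T cells, 131 and 182 in gamma-delta T cells, and 112 and 136 in NK cells. In PBS gamma-delta T cells overlapped NK cells, and in UDSP-Hep CD8 T cells. Fyn, the second Src-family kinase of T cells, reached 357 and 393 CPM in NK cells, above every other class in both libraries, against 218 and 308 in CD8 T cells.

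Txk, a Tec-family kinase that can act on phospholipase C gamma, had the widest spread between classes of the 4 kinases. It stood at 681 and 698 CPM in NK cells, 446 and 490.2 in gamma-delta T cells, 135 and 231 in CD8 T cells, 112 and 138 in CD4 T cells, and 57.6 and 99.0 in Treg, so that NK cells led and Treg came last. The order was the same in both libraries, and every step was larger than counting error in both, apart from that between CD8 and CD4 T cells in PBS. The level in NK cells was close in both libraries (ratio 1.03, 0.952 to 1.10).

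The adaptors differed in how far NK cells shared them with T cells. Lcp2, which encodes SLP-76, stood at 178 and 188 CPM in CD8 T cells and 128 and 140.2 in NK cells, and was as high in macrophages and monocytes, at 208 and 227 CPM. Skap1, an adaptor that couples the receptor to integrins, stood at 222 and 231 CPM in NK cells and 166 and 251 in CD8 T cells, and Vav1, an exchange factor for Rac, at 94.0 and 82.4 against 58.7 and 85.0 CPM. The Sh2d1a product SAP, which serves SLAM-family receptors, was at 157 and 131 CPM in NK cells and lowest in Treg, at 33.8 and 39.2. Lat was at 225 and 248 CPM in CD8 T cells but 41.2 and 44.7 in NK cells. It was highest in CD4 T cells, at 399 and 394 CPM, apart from every other class in both libraries.

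Themis, which T cells need during selection in the thymus, was highest in CD8 and CD4 T cells and close to absent from NK cells. It stood at 171 and 127 CPM in CD8 T cells and 147 and 148 in CD4 T cells, but at 20.5 and 26.6 in Treg and 35.5 and 27.1 in gamma-delta T cells. NK cells gave 1 and 2 UMIs in all. Plcg1, the phospholipase C that acts in T cells, fell into the same pattern in NK cells, with 6 and 14 UMIs or 4.34 and 3.28 CPM, where CD8 T cells had 74.8 and 95.9 CPM. Trat1, a transmembrane adaptor that binds the receptor complex, was highest in CD4 T cells, at 86.7 and 104 CPM, while Treg had 49.0 and 56.5, CD8 T cells 15.7 and 25.9, and NK cells 3.62 and 3.51. Sit1, a related transmembrane adaptor, gave 0 and 1 UMIs in NK cells, and Grap2, which joins Lat to SLP-76, was at 43.4 and 43.3 CPM there and 93.4 and 128 in CD8 T cells.

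Downstream of the scaffolds, Malt1, Bcl10, Prkcq, Nfatc1, Nfatc2 and Rasgrp1 were detected in all 5 classes. Malt1, a protease of NF-kB signalling, was highest in NK cells, at 652 and 794 CPM, with 281 and 400.3 in CD8 T cells, 394 and 507 in CD4 T cells and 489 and 497 in Treg. Bcl10, which works with Malt1, was nearly flat, from 59.9 to 84.4 CPM over the classes in PBS and from 62.8 to 93.0 in UDSP-Hep, and no neighbours in the order were apart. Prkcq, the diacylglycerol-activated kinase of the T cell synapse, was lowest in Treg, at 30.0 and 38.4 CPM, and between 81.7 and 143 CPM in the other classes. Nfatc1 was also lowest in Treg, at 108 and 116 CPM, and reached 185 and 230.1 in NK cells. Rasgrp1, which activates Ras, ranged from 97.0 to 187 CPM in PBS and from 107 to 169 in UDSP-Hep, and Nfatc2 from 30.8 to 60.04 and from 26.2 to 67.9.

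Among the brakes, Cd5 and Cd6 separated the classes most. They are receptors of the scavenger family that tune receptor signalling, and they neighbour each other on chromosome 19 (Cd5 from 10717116 to 10739002, Cd6 from 10789341 to 10830058). For Cd5, CD4 T cells had 360.2 and 244 CPM, Treg 355 and 289, CD8 T cells 92.2 and 89.8, gamma-delta T cells 28.9 and 31.0, and NK cells 2.17 and 1.87, and only CD4 T cells and Treg were not apart. Cd6 was highest in CD4 T cells, at 489 and 398 CPM, followed by Treg (379.6 and 306), CD8 T cells (204 and 216), gamma-delta T cells (44.4 and 81.4) and NK cells (5.79 and 2.81), and every step was larger than counting error in both libraries. Cd2, an adhesion receptor that costimulates, was highest in Treg instead, at 665 and 715 CPM against 315 and 367 in CD4 T cells. Ptpn22, a phosphatase that acts on Lck and Zap70, was highest in gamma-delta T cells (575 and 740.2) and NK cells (574 and 665), and Ptpn6, which encodes SHP-1, in CD8 T cells (173 and 178). Cblb, a ubiquitin ligase, was at 287 and 258 CPM in CD8 T cells and 152 and 161 in CD4 T cells, and Ubash3a, which limits Zap70, at 118 and 123 in CD4 T cells against 31.1 and 25.8 in NK cells. The diacylglycerol kinase gene Dgka was highest in CD4 T cells, at 78.4 and 84.3 CPM, but not apart from the next class in either library.

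Contrasts between classes were counted where a gene differed by at least 1.5-fold, with an interval that excluded equality, in both libraries. CD8 T cells were higher than NK cells in 16 of the 36 genes and lower in 2, while of all 10206 genes tested 9.81% were higher and 7.96% lower. The calls for Cd8a and Cd8b1 among the 16 were fixed by the gates, and those for the CD3 genes in part. The 2 lower genes were Txk (ratio 0.198 and 0.331) and Malt1 (0.431 and 0.504). Besides the CD3 genes and both CD8 genes, the 16 comprised Cd5 (42.5 and 47.9), Cd6 (35.2 and 76.8), Plcg1 (17.2 and 29.3), Lat (5.46 and 5.55), Trat1 (4.34 and 7.38), Ubash3a (3.01 and 3.30), Grap2 (2.15 and 2.96), Ptpn6 (2.08 and 2.60), Dgka (1.99 and 1.75), Themis and Sit1. The ratio for Themis was 237 (42.4 to 9356) and 270.5 (74.5 to 2240.1), resting on the 1 and 2 UMIs in NK cells. Of the remaining 18, Cd247, Lck, Zap70, Fyn, Lcp2 and Skap1 were among those that did not pass in both libraries.

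**Figure D2:**
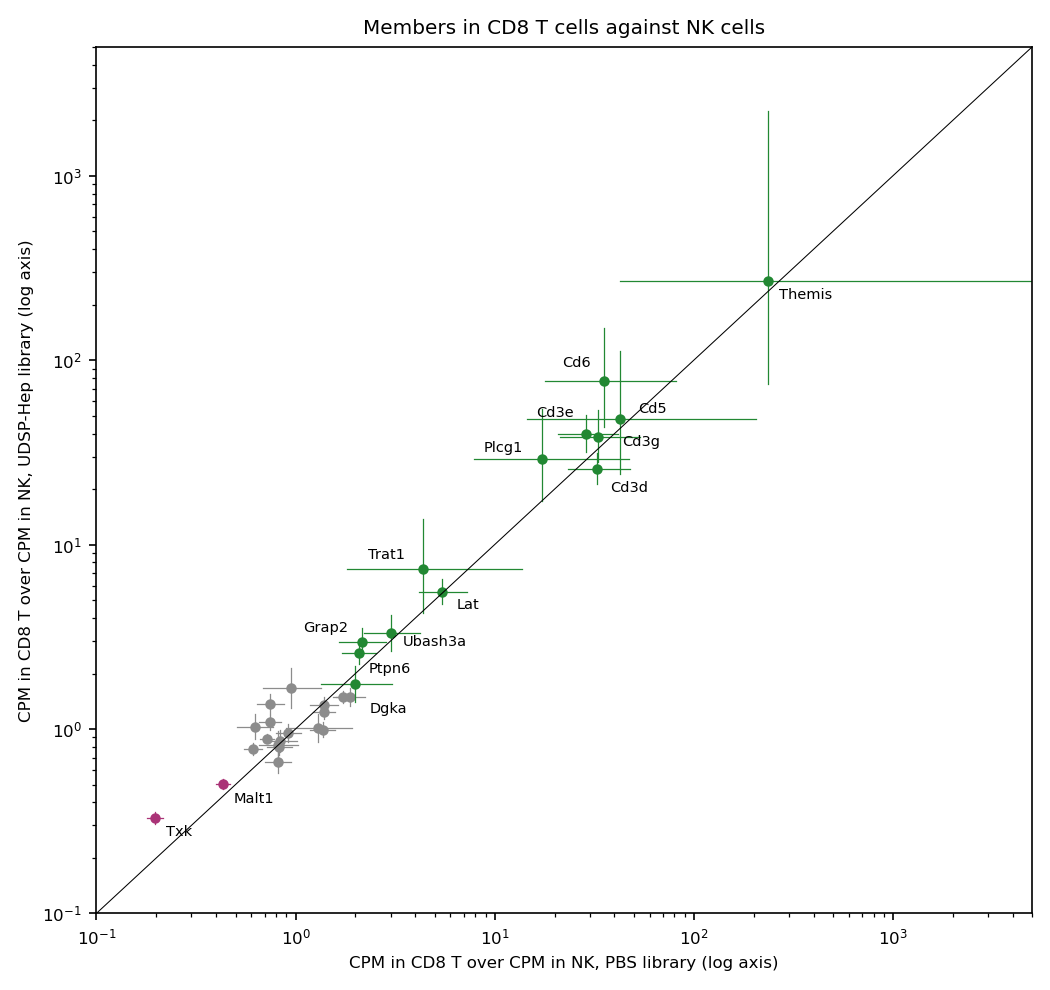
CPM in CD8 T cells over CPM in NK cells for each gene, in the PBS library (x, log axis) against the UDSP-Hep library (y, log axis), with 95% counting intervals and the line of equal ratios. Green genes were higher and purple genes lower in CD8 T cells by at least 1.5-fold in both libraries, grey genes neither, and Sit1, Cd4, Cd8a and Cd8b1 are not drawn because at least 1 library has 0 UMIs in NK cells.

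Against CD8 T cells, CD4 T cells were higher in 9 genes and lower in 3, where 3.97% of 9846 genes were higher and 1.97% lower. Apart from the gating genes, the higher ones were Trat1 (5.52 and 4.02), Cd5 (3.91 and 2.72), Sit1 (3.30 and 2.62), Cd6 (2.40 and 1.85), Nfatc2 (1.95 and 1.56), Dgka (1.94 and 1.55), Lat (1.77 and 1.59) and Lcp2 (1.65 and 1.69), and the lower one was Cblb (0.528 and 0.623). Treg were lower than CD4 T cells in 12 genes and higher in 1, against 4.4% and 7.16% of 8908 genes. The lower genes included Themis (0.139 and 0.180), Sh2d1a (0.253 and 0.409), Prkcq (0.257 and 0.373), Grap2 (0.354 and 0.268), Skap1 (0.447 and 0.468) and Plcg1 (0.619 and 0.629), besides Trat1, Nfatc1, Sit1, Dgka, Ubash3a and the gating gene Cd4, and the higher gene was Cd2 (2.11 and 1.95). Beside that, summed macrophage markers in Treg were 958.5 and 778 CPM and in CD4 T cells 522 and 215 CPM, and the part of these in the contrast was not tested. Treg were higher than CD8 T cells in 5 genes and lower in 9, against 10.4% and 5.9% of 10301 genes. The higher ones outside the gates were Cd5 (3.85 and 3.22), Trat1 (3.12 and 2.18), Cd2 (3.07 and 3.23) and Lcp2 (1.54 and 1.55), and Themis (0.119 and 0.210), Prkcq (0.367 and 0.373) and Txk (0.427 and 0.429) were among the lower ones.

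The study compared the PBS and UDSP-Hep tumours, and between these libraries most of the 36 genes stood at similar levels within each class. To count as higher or lower, a gene needed 20 or more UMIs over both libraries, a 1.5-fold difference in either direction and an interval clear of equality. In CD8 T cells 35 genes had enough UMIs, of which 4 counted as higher and 0 as lower, while of all 10951 genes tested 12% counted as higher and 7.9% as lower. In CD4 T cells 1 of 34 counted as higher and 1 as lower (6.29% and 3.13% of all genes). In Treg 2 of 34 counted as higher and 0 as lower (5.61% and 4.06%), in gamma-delta T cells 4 of 32 and 1 (5.04% and 3.98%), and in NK cells 2 of 30 and 0 (4.38% and 2.39%). In CD8 T cells and Treg the share of members counted as higher was close to that of all genes, while none counted as lower. The median log2 ratio of the members was 0.081 in CD8 T cells, 0.10 in CD4 T cells, 0.10 in Treg, 0.12 in gamma-delta T cells and 0.047 in NK cells, and that of all genes lay between 0.029 and 0.052. Close to equality in CD8 T cells were Cd3e (1.01), Cd247 (0.932), Zap70 (0.953), Cd2 (1.02), Cd5 (0.974), Cd6 (1.06), Lcp2 (1.06), Bcl10 (1.05) and Ptpn6 (1.03).

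**Figure D3:**
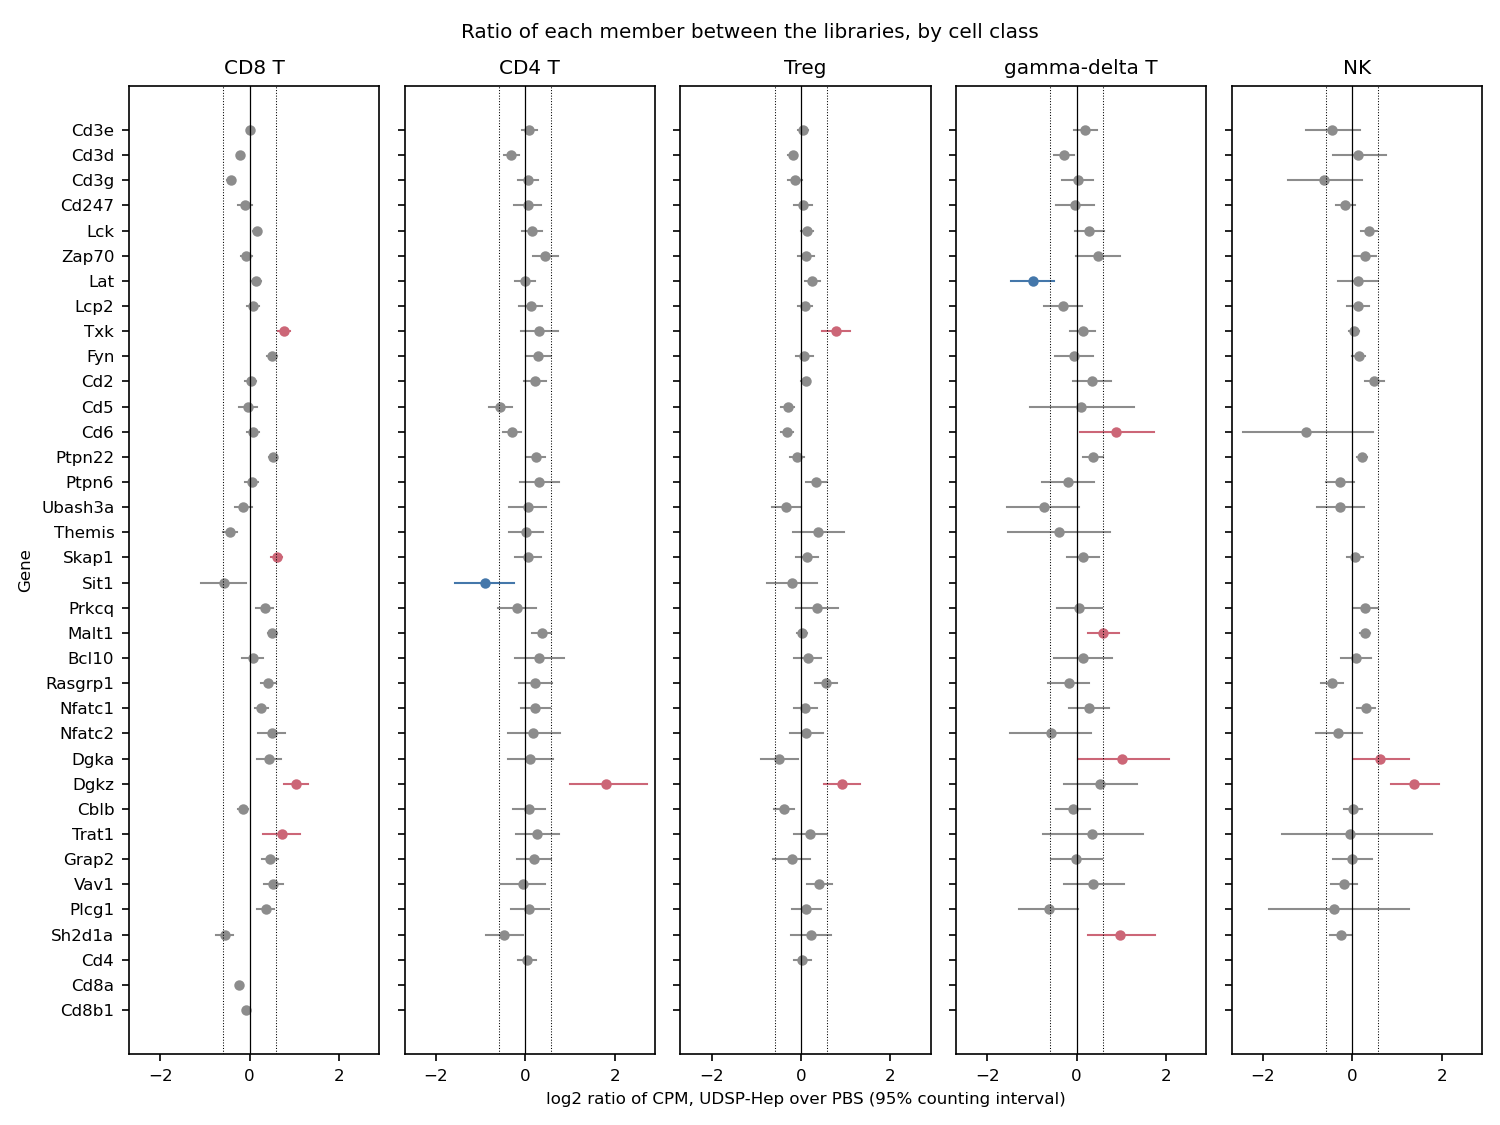
Log2 ratio of CPM, UDSP-Hep over PBS, for each gene in each class, with 95% counting intervals; dotted lines mark 1.5-fold either way. Red genes counted as higher, blue genes as lower and grey genes as neither, genes with under 20 UMIs or with 0 UMIs in a library are not drawn, and Dgkz is the gene in red in 4 of the 5 panels.

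Dgkz, which encodes diacylglycerol kinase zeta, a brake that removes the diacylglycerol made after receptor engagement, was higher in the UDSP-Hep library in 4 of the 5 classes. The gene lies on the minus strand of chromosome 2, from 91932824 to 91975864. It stood at 31.7 and 64.9 CPM in CD8 T cells (214 and 243 UMIs, ratio 2.05, 1.70 to 2.47) and at 24.6 and 64.1 CPM in NK cells (34 and 274 UMIs, ratio 2.61, 1.82 to 3.84). CD4 T cells had 23.3 and 81.4 CPM (14 and 114 UMIs, ratio 3.49, 1.996 to 6.58) and Treg 35.2 and 66.5 CPM (74 and 180 UMIs, ratio 1.89, 1.43 to 2.51). In gamma-delta T cells the level was 48.9 and 69.8 CPM on 22 and 36 UMIs, a ratio of 1.43 whose interval, 0.817 to 2.55, spanned equality. Within a library, no neighbouring classes in the order of Dgkz levels were apart.

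The difference in Dgkz was present within clusters. In CD8 T cells the ratio was 2.20 in T0 (1.43 to 3.33), 2.64 in T1 (1.87 to 3.71), 1.55 in T3 (0.799 to 3.30), 2.79 in T4 (1.49 to 5.43), 2.22 in T5 (0.755 to 8.88) and 2.33 in T11 (1.20 to 4.75). In the NK clusters it was 2.80 in T6 and 2.61 in T7, and in Treg 1.78 in T9, 2.79 in T11 and 1.47 in T12. It was not particular to lymphocytes: macrophages and monocytes had 17.0 and 47.9 CPM (ratio 2.82, 2.57 to 3.10). The 58 and 866 cells of neutrophil clusters had 16.8 and 77.6 CPM, resting on 3 and 189 UMIs (intervals 3.46 to 49.05 and 66.9 to 89.5 CPM). Summed neutrophil markers, given above, were also higher in UDSP-Hep in these classes, and their part in the Dgkz result was not tested. With cells thinned to 2000 UMIs, a Dgkz UMI was seen in 7.19% and 12.1% of CD8 T cells (unthinned, 28.4% and 32.5%) and in 5.14% and 11.5% of NK cells (unthinned, 9.91% and 22.2%). Of the 15 calls made on members, those for Dgkz in CD8 T, CD4 T and NK cells were the 3 kept under every alternative processing, and that in Treg missed the threshold only in thinned cells. Dgka, its relative, differed less, with 40.3 and 54.5 CPM in CD8 T cells (1.35, 1.12 to 1.63), and 20.3 and 31.1 CPM in NK cells (1.54, 1.02 to 2.40), a call that ended under 6 of 12 alternatives.

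The other 3 genes that counted as higher in CD8 T cells were Txk, Skap1 and Trat1, and for these the make-up of the class differed beside the level. Txk stood at 135 and 231 CPM (ratio 1.71, 1.56 to 1.88), Skap1 at 166 and 251 CPM (1.52, 1.39 to 1.66) and Trat1 at 15.7 and 25.9 CPM (1.65, 1.24 to 2.19). Clusters T0, led by Gzmc, Pclaf and Top2a, and T1, led by Cxcr6 and Gzmf, held 102 and 21 and 231 and 92 CD8 T cells, and T3, led by Ccl5 and Gzmk, and T5, led by Ccr7 and Tcf7, held 59 and 190 and 27 and 54. Txk was at 70.5 and 78.5 CPM in T0 and 83.0 and 104 in T1, but at 298 and 213 in T3, 356 and 390 in T4 and 873 and 616 in T5. Within these 5 clusters the ratio for Txk was 1.11, 1.26, 0.714, 1.09 and 0.705, with the intervals in T3 and T5 below equality, and with every cluster weighed the same its log2 ratio was -0.24 in place of 0.78. The Txk call was also lost in thinned cells and with every cell weighed the same. Trat1 was highest in T4, at 73.0 and 76.8 CPM, and its log2 ratio was 0.0030 with clusters weighed the same. T4 held 100 and 79 of the CD8 T cells. Trat1 stood at 7.44 and 0 CPM in T0, and its ratio in T1 (2.17, 0.635 to 6.82) and T3 (1.13, 0.499 to 2.88) spanned equality. Skap1 ratios within T0, T1, T3, T4, T5 and T11 were 1.32, 1.20, 0.862, 1.33, 1.32 and 1.75, and its call, close to the threshold, held under 5 of 13 alternatives. What set the different make-up was not tested.

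**Figure D4:**
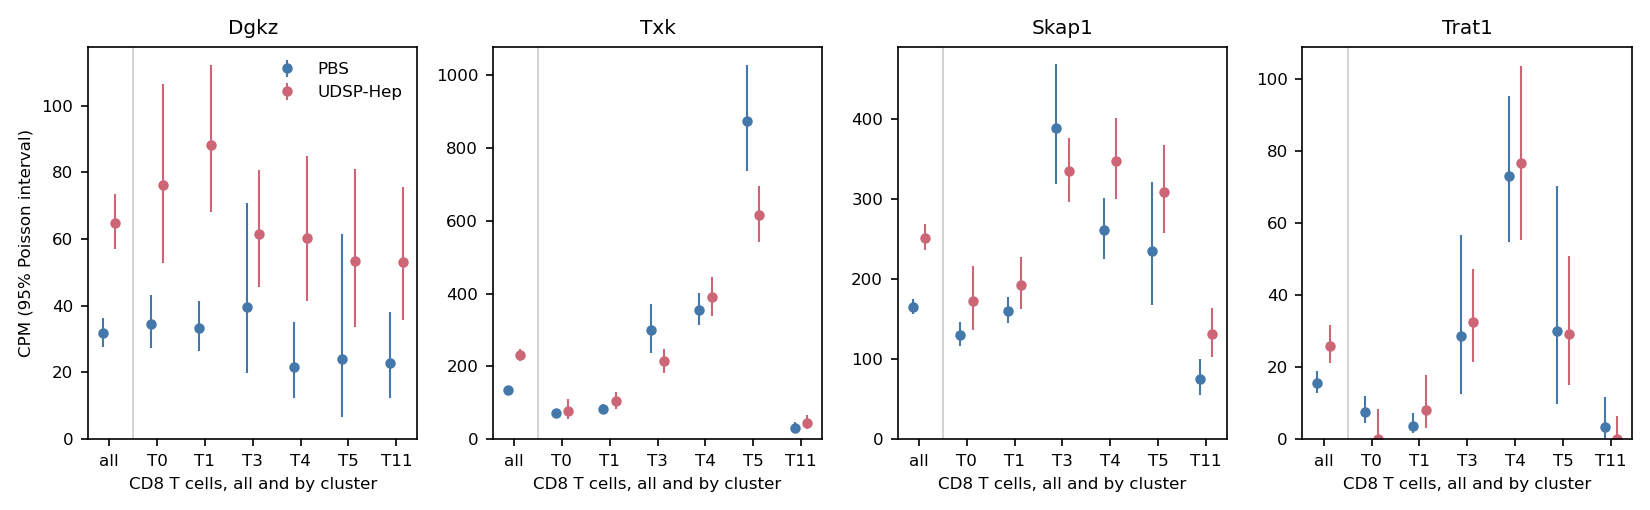
CPM with 95% Poisson intervals of the 4 genes that counted as higher in CD8 T cells, over the whole class (left of the grey line) and in each of 6 clusters, for PBS (blue) and UDSP-Hep (red). Dgkz is higher in UDSP-Hep in all 6 clusters, whereas Txk is lower in T3 and T5 although it is higher over the class.

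Several members lay just short of the threshold in CD8 T cells, all higher in UDSP-Hep: Vav1 at 58.7 and 85.0 CPM (1.45), Ptpn22 at 412 and 590.3 (1.43), Malt1 at 281 and 400.3 (1.42), Fyn at 218 and 308 (1.41) and Nfatc2 at 30.8 and 43.6 (1.41). On the other side were Sit1 at 18.7 and 12.6 CPM (0.673), Sh2d1a at 128 and 86.8 (0.680) and Themis at 171 and 127 (0.740). In cluster T1, Nfatc1 stood at 188 and 335 CPM, Malt1 at 298 and 436 and Sh2d1a at 158 and 97.6. There the ratio was 1.499 for Fyn (1.284 to 1.745) and 1.398 for Ptpn22 (1.253 to 1.558), both clear of equality. Those for Vav1 (1.376, 0.9945 to 1.884) and Nfatc2 (1.33, 0.817 to 2.111) in T1 spanned equality. In T0 and T3 the ratio was 1.20 and 1.11 for Nfatc1, 1.02 and 1.17 for Malt1 and 1.05 and 1.09 for Fyn. It was 1.17 and 1.03 for Ptpn22, 1.45 and 0.989 for Vav1 and 0.756 and 1.06 for Nfatc2. All of these intervals in T0 and T3 spanned equality. Sh2d1a was lower in T0 as well, with a ratio of 0.598 (0.413 to 0.842).

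In Treg, Txk was the other gene that counted as higher, at 57.6 and 99.0 CPM (1.72, 1.38 to 2.15), and Rasgrp1 lay short of the threshold at 97.0 and 142 CPM (1.47, 1.23 to 1.75). Within Treg clusters the ratio for Txk was 1.23 in T9, 2.26 in T11 and 1.64 in T12, and the call was lost with gates at 2 UMIs and with every cluster weighed the same. The 5 NK markers, all detected in both libraries, summed to 15.7 and 50.2 CPM in Treg, against 2915 and 2950 CPM in NK cells, where Txk was highest, and their part in the Txk result was not tested. In CD4 T cells the gene that counted as lower was Sit1, at 61.7 and 32.9 CPM (37 and 46 UMIs, ratio 0.533, 0.338 to 0.844), a call lost in thinned cells, with gates at 2 UMIs and with classes taken from clusters, and Cd5 lay just short at 360.2 and 244 CPM (0.678, 0.570 to 0.808).

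Gamma-delta T cells gave 5 calls, none of which was kept under every alternative. Lat was lower, at 233 and 118 CPM (105 and 61 UMIs, ratio 0.507, 0.363 to 0.701). Sh2d1a at 51.1 and 101 CPM (1.97, 1.19 to 3.38), Dgka at 28.9 and 58.1 (2.01, 1.02 to 4.21), Cd6 at 44.4 and 81.4 (1.83, 1.05 to 3.29) and Malt1 at 258 and 389 (1.51, 1.20 to 1.92) were higher. Cluster T10, led by Il17a and Cd163l1, held 25 of the 91 PBS and 3 of the 89 UDSP-Hep cells, and T4 held 58 and 69. With classes taken from clusters, the log2 ratio of Lat was -0.20 in place of -0.98, and those of Cd6 and Sh2d1a turned to -0.50 and -0.084. Taken that way, the class held 348 and 355 cells in place of 91 and 89, so it was largely a different set of cells. In T4 it included 100 and 79 cells gated as CD8 T and 137 and 171 that met no gate.

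Macrophages and monocytes were measured for reference. Here 26 of the 36 genes counted as higher and 0 as lower, against 11.1% and 4.12% of all 12716 genes tested. The receptor genes were at a few CPM, such as Cd3e at 6.996 and 20.8, Lck at 5.09 and 16.8 and Cd8b1 at 3.45 and 9.51 CPM, and T and NK cells were 25.2% and 39.3% of the kept cells. Dgkz, Rasgrp1 (26.2 and 49.0) and Nfatc1 (32.5 and 56.1) were among the 26 at higher levels. Whether these UMIs came from free RNA, from doublets or from the cells themselves was not tested. Genes that myeloid cells use themselves stood far higher and nearer equality, with Ptpn6 at 261 and 296 CPM, Lcp2 at 208 and 227, Malt1 at 308 and 229 and Bcl10 at 102 and 99.4.

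Other components of the pathway, and genes that the receptor switches on, were compared between the libraries in the same way. Of 69 further signalling components tested in CD8 T cells, 10 counted as higher and 0 as lower, beside 12% and 7.9% of all genes. The share counted as higher was thus close to that of all genes. Their median log2 ratio was 0.29, against 0.050 over all genes, and with every cluster weighed the same 4 counted as higher. The 10 included Ripor2, a regulator of RhoA, at 45.2 and 121 CPM (2.68, 2.32 to 3.11), and the protein kinase C gene Prkcd at 48.9 and 124 (2.54, 2.20 to 2.93). Also among them were the costimulatory receptor gene Icos at 167 and 328 (1.97, 1.82 to 2.14) and the NF-kB gene Rel at 67.9 and 137 (2.02, 1.78 to 2.30). Of 40 receptor-induced and feedback genes, 20 counted as higher and 2 as lower (median 0.56). The feedback inhibitor gene Spry1 stood at 11.9 and 41.1 CPM (3.47, 2.63 to 4.61), the early transcription factor genes Egr3 at 13.6 and 44.9 (3.29, 2.54 to 4.29), Nr4a1 at 86.7 and 238 (2.74, 2.47 to 3.05) and Nr4a3 at 70.5 and 184 (2.60, 2.31 to 2.93). Tox at 305 and 127 CPM and Tnfrsf4 at 98.9 and 52.9 were the lower ones.

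The same feedback list also differed in cells without a T cell receptor. In NK cells 8 of 36 genes counted as higher and 2 as lower (median 0.26), with Nr4a2 at 231 and 472 CPM (2.05, 1.82 to 2.31), Nr4a1 at 184 and 369 (2.01, 1.76 to 2.30), Ctla4 at 35.4 and 80.1 (2.26, 1.67 to 3.11) and Nr4a3 at 64.4 and 134 (2.09, 1.67 to 2.64), and Ifng and Lag3 lower. In macrophages and monocytes 21 of 40 counted as higher and 1 as lower (median 0.62). The T cell gene Trac also stood at 8.23 and 22.6 CPM in that class, and the part of T cell RNA in this count was not tested. Of all genes, 4.38% counted as higher and 2.39% as lower in NK cells, and 11.1% and 4.12% in macrophages and monocytes. Whether the genes of the feedback list followed receptor signals or other stimuli was not tested. Of 68 other signalling components in NK cells, 1 counted as higher, the calcium channel gene Orai1 at 51.4 and 82.6 CPM (1.61, 1.24 to 2.11). All 20 proliferation genes counted as lower in CD8 T cells (median -1.52), among them Cenpf at 78.3 and 19.2 CPM, Ube2c at 177 and 51.6, Birc5 at 137 and 39.8 and Tpx2 at 67.7 and 19.0, beside the smaller share of cluster T0 in UDSP-Hep. In NK cells 1 of 19, Tyms, counted as lower, at 17.4 and 6.79 CPM.

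**Figure D5:**
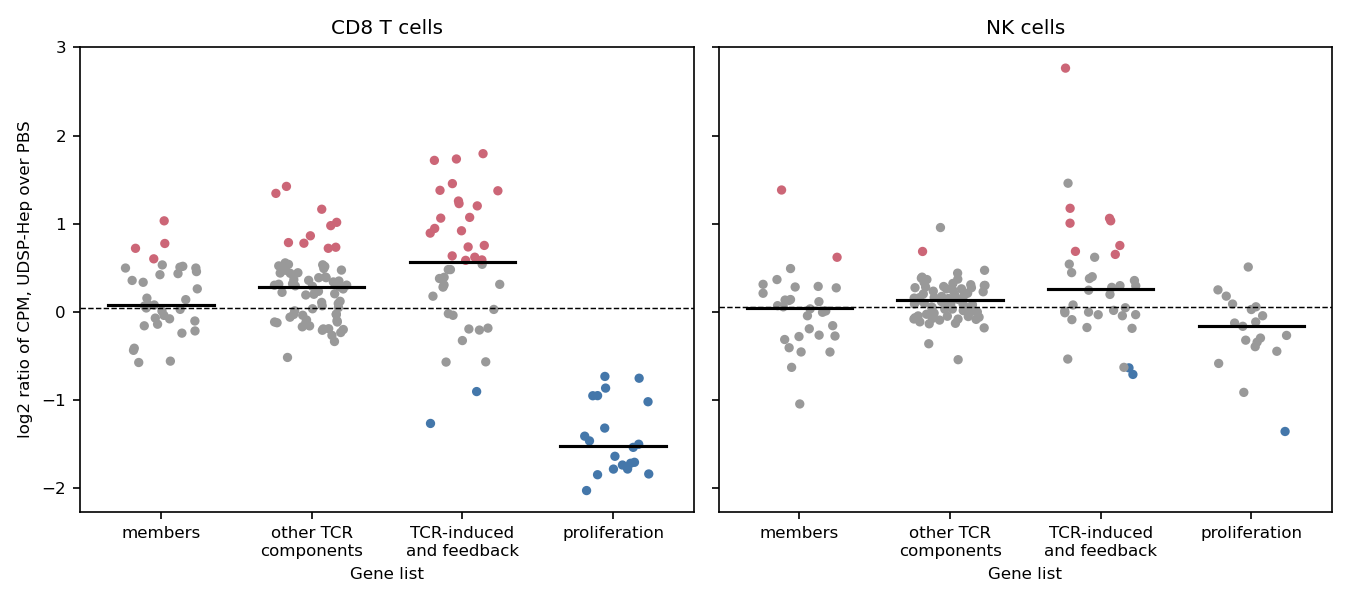
Log2 ratio of CPM, UDSP-Hep over PBS, for the members and 3 other gene lists in CD8 T cells (left) and NK cells (right), 1 point per gene with at least 20 UMIs. Red points counted as higher, blue as lower and grey as neither, thick bars are list medians and the dashed line is the median of all genes; the receptor-induced list is centred at 0.56 in CD8 T cells and 0.26 in NK cells.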

How the data were processed

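The deposited tables hold raw UMI counts per gene and cell barcode, and per the file headers the authors used Cell Ranger 7.0.0. The submitters' processing notes also name mm10 and Seurat, without a role. Neither the annotation nor any filter on barcodes is given in the sources used here, and no barcode had under 500 UMIs. The libraries held 74685827 and 64241224 UMIs. Deposited gene and barcode names carry no measurement (unit other).

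Cells with at least 200 genes, 500 UMIs and under 10% mitochondrial UMIs were kept, which removed 245 and 197 barcodes. Scrublet's own threshold marked 0.0138% and 0% of barcodes, so the highest scores at 0.8% per 1000 barcodes, 417 and 480, were removed as doublets. Both libraries were clustered together without the 36 members (scanpy 1.11.5, Python 3.11.15, 2000 variable genes, 30 principal components, 15 neighbours, Leiden resolution 1.0), and T and NK clusters were clustered once more into 14. Their cells were gated in order as gamma-delta T (Trdc, no Trac, at least 2 CD3 UMIs), Treg (Foxp3 and a receptor constant gene, no Cd8a or Cd8b1), CD8 T (Cd8a or Cd8b1 and a constant gene, no Cd4 or Foxp3), CD4 T (Cd4 and a constant gene, no Cd8a, Cd8b1 or Foxp3) and NK (Ncr1 or Klrb1c, no Trac, Trdc, Cd8b1, Cd4 or Foxp3).

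UMIs were summed per class and library, with exact Poisson intervals for CPM, exact conditional binomial intervals for ratios and exact binomial intervals for shares (scipy 1.17.1), all covering counting error only. Calls across genes were checked on simulated counts. With 1 library per group no p-value was computed. Deeper classes have narrower intervals: CD8 T cells had 6747475 and 3742425 UMIs, gamma-delta T cells 450241 and 516072. Loci are from GENCODE M21, matched by gene ID for all 36 members. Of these, 9 share a stretch with another gene on the same strand, so their counts are less certain. They are Dgkz, Trat1, Cd3e, Cd247, Lck, Lat, Ptpn22, Prkcq and Grap2. Members, lists and tests were chosen with earlier results of these data known. Named genes were all members called in CD8 T, CD4 T, Treg or NK cells, the CD3, zeta, Lck, Zap70, Lat and coreceptor genes, and up to 4 genes of each other list in CD8 T and NK cells with the interval bound nearest equality farthest from it. Others were named after their values were seen. Results were recomputed in 13 other ways, and in 1 more chosen after seeing the data.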

Additional observations from a re-analysis of the deposited data

How the results depend on the processing

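No paired analysis was possible because each group had 1 library and the labels carry no replicate numbers. Of the 15 calls on members, 3 were kept in every alternative and 11 kept their sign in all. Those that turned were Txk in CD8 T cells (log2 ratio -0.24) and Dgka in NK cells (-0.049) with every cluster weighed the same, and Cd6 (-0.50) and Sh2d1a (-0.084) in gamma-delta T cells with classes taken from clusters. Where cells or clusters were weighed the same, genes were called by fold alone, with at least 20 UMIs. Only clusters with at least 10 cells of the class in each library were weighed. That left T2 alone for CD4 T cells and T4 alone for gamma-delta T cells. For NK cells it left T6, T7 and T4, which held only 10 and 16 of them. The cause of the moves was not tested.

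Members counted as higher, by alternative, were 1 in place of 4 in CD8 T cells with clusters weighed the same. In NK cells they were 1 in place of 2 under median-of-ratios scaling, without mitochondrial and ribosomal genes in the total, in thinned cells, with gates at 2 UMIs and with classes taken from clusters, and 4 with clusters weighed the same. In Treg they were 1 in place of 2 in thinned cells, with gates at 2 UMIs and with clusters weighed the same. In gamma-delta T cells they were 2 in place of 4 under median-of-ratios scaling, and 1 in thinned cells and with classes taken from clusters.

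Members counted as lower in CD8 T cells were 2 in place of 0 under median-of-ratios scaling, and 1 without mitochondrial and ribosomal genes, with doublets kept, in thinned cells, with classes taken from clusters, with clusters weighed the same and with Cd8b1 or Cd8a alone as the gate. In CD4 T cells they were 0 in place of 1 in thinned cells, 2 under both scalings and with classes taken from clusters, and 3 with clusters weighed the same. In Treg they were 1 in place of 0 with doublets kept, with cells weighed the same and without T11, the cluster with macrophage markers, an alternative chosen after seeing the data. In gamma-delta T cells they were 3 in place of 1 with classes taken from clusters, and 2 with cells or clusters weighed the same. In NK cells they were 1 in place of 0 in thinned cells, 9 with classes taken from clusters, 3 with cells and 4 with clusters weighed the same. Taken from clusters, the NK class held 456 and 1435 cells in place of 323 and 1006. Among them were cells that the gates had left ungated or placed in T cell classes. The share of all genes called under each alternative is not given here, so the counts in this section cannot be set against it.

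Other signalling components counted as higher in CD8 T cells were 4 in place of 10 with clusters weighed the same, and as lower 1 in place of 0 with doublets kept and in thinned cells. In NK cells the higher ones were 0 in place of 1 with doublets kept, in thinned cells, with classes taken from clusters and with cells weighed the same, and 5 with clusters weighed the same. The lower ones there were 1 in place of 0 under median-of-ratios scaling, with doublets kept, in thinned cells and with cells weighed the same, and 2 with classes taken from clusters or clusters weighed the same. Receptor-induced genes counted as lower in CD8 T cells were 4 in place of 2 under median-of-ratios scaling, in thinned cells and without T11, and 1 with clusters weighed the same. In NK cells the higher ones were 13 in place of 8 with doublets kept and 15 with clusters weighed the same, and the lower ones 0 in place of 2 with doublets kept and 1 in thinned cells and with gates at 2 UMIs. Depth limits the gamma-delta and CD4 T classes most, whose UMI totals are smallest.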

Other observations

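Receptor-induced and feedback genes were also described in the classes not ranked for named genes. In CD4 T cells 20 of 39 tested counted as higher in the UDSP-Hep library and 0 as lower (median log2 ratio 0.61, against 0.051 over all genes), in Treg 12 of 39 and 0 (0.36, against 0.036) and in gamma-delta T cells 14 of 30 and 2 (0.58, against 0.029). Examples chosen after their values were seen are Nr4a2, at 43.4 and 180 CPM in CD4 T cells (ratio 4.15, 2.77 to 6.48) and 50.9 and 136 CPM in Treg (2.68, 2.15 to 3.35), and the chemokine gene Ccl4, at 55.5 and 318 CPM in gamma-delta T cells (5.72, 3.74 to 9.10). Of all genes tested, 6.29% counted as higher and 3.13% as lower in CD4 T cells. The shares were 5.61% and 4.06% in Treg and 5.04% and 3.98% in gamma-delta T cells. Of the further signalling components, 4 of 69 counted as higher and 2 as lower in CD4 T cells. In Treg the counts were 4 of 69 and 0, and in gamma-delta T cells 5 of 67 and 0. In CD4 T cells and Treg the share of these components counted as higher was close to that of all genes. Proliferation genes went different ways by class: 10 of 20 counted as higher and 0 as lower in CD4 T cells, 0 and 6 of 20 in Treg, and 0 and 4 of 9 in gamma-delta T cells.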
